A study of Rattus norvegicus with 3 samples.

Results

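Cadherins and protocadherins are adhesion proteins of the cell surface that bind through repeated calcium-dependent domains on the outside of the cell. Classical cadherins join the membranes on both sides of a synapse and are tied to actin inside the cell by the catenins. Most protocadherins lack the catenin-binding tail. The alpha, beta and gamma protocadherins lie in 3 neighbouring gene clusters, in which each isoform has its own promoter and single neurons choose different sets of isoforms, giving each neuron a surface identity, whereas the delta protocadherins are single genes that take part in axon sorting and synapse remodelling. In the amygdala, both families are known for marking subnuclei during development and for roles at mature synapses.

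The 64 genes described here were the protein-coding genes of the deposited table with a name of the form Cdh plus a number or starting with Pcdh, and with a mean value above 1 over the 3 libraries. They were 64 of 16775 protein-coding genes that passed this filter, no gene of these names failed it, and 2 further genes of the name pattern were set aside by the rule. There were 29 single genes (4 type I and 11 type II classical cadherins, 3 atypical cadherins, 3 delta-1, 5 delta-2 and 3 other protocadherins) and 35 clustered protocadherins (3 rows for alpha, 15 beta and 17 gamma).

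RNA was sequenced from micropunches of the basolateral amygdala (BLA), the amygdala division that weighs threat and reward, of male Sprague-Dawley rats that were 8 weeks old at the start. Rats kept in pairs in standard cages were the SH group. The EE group lived 10 to a large multi-level cage with toys during the active phase and was housed singly by day, and the ER group had the same enrichment for 4 weeks and then lost it, living singly in bare cages for 2 weeks before collection. Group size, company and enrichment therefore changed together and cannot be told apart, and no genotype was altered in any group. RNA of 10 rats was pooled into 1 library per condition, so that EEvSH (experience of enrichment), ERvSH (enrichment and its loss) and ERvEE (loss) each compare 1 library with 1 library. There is no spread between rats and no p-value.

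The unit throughout is the scaled count, reads divided by a size factor of the library. The libraries held 30334384 reads (SH), 29263063 (EE) and 29558555 (ER), and the 64 genes together took 0.204%, 0.198% and 0.203% of them. A ratio is followed by its exact 95% binomial (Clopper-Pearson) interval, which covers counting error between 2 libraries only and not the spread between animals. A gene passed the size rule where the ratio reached 1.5-fold either way and the interval did not hold 1. Where only the interval is met, the difference is called resolved. Values given as triplets are in the order SH, EE and ER. Longer transcripts give more reads, and no transcript lengths were used, so values are compared between libraries and not between genes. In punched tissue, fewer cells of a type and less RNA per cell cannot be told apart.

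Across the family the 3 libraries were close. In EEvSH 0 of the 64 genes passed the size rule, where 1.19% of all genes compared passed it as higher and 0.942% as lower. In ERvSH 0 passed, beside 0.817% and 0.864% of all genes. In ERvEE 0 were higher and 1 was lower, beside 0.775% and 0.924%. These counts are near the background and are no result about the family. The median log2 ratio of the members was 0.03 in EEvSH, 0.01 in ERvSH and 0.03 in ERvEE. Over all genes compared it was 0.00 in each. The interval of 45 members in EEvSH, 49 in ERvSH and 53 in ERvEE lay wholly inside 1.5-fold. For all genes the shares were 71.7%, 72.3% and 72.1%.

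**Figure D1:**
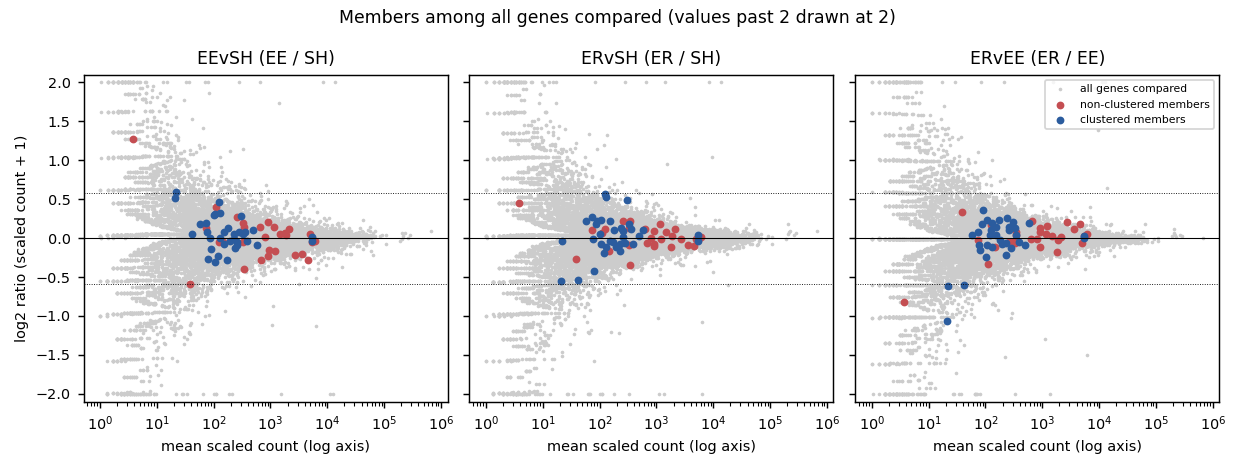
Log2 ratio of scaled counts (pseudocount 1) against the mean scaled count (log axis) for all 16775 genes compared (grey), the 29 non-clustered (red) and the 35 clustered members (blue), with 1 panel per contrast and dotted lines at 1.5-fold. The members lie within the cloud of all genes, and those beyond the dotted lines are among the genes with the fewest reads.

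Smaller differences were resolved for the genes with many reads. In EEvSH the interval excluded 1 for 7 members that were higher and 8 that were lower, beside 9.27% and 8.94% of all genes. In ERvSH it did so for 5 and 4 members, beside 7.59% and 7.89%, and in ERvEE for 6 and 3, beside 6.47% and 6.5%. Reads set what an interval can resolve. Among members with a mean of 500 to 2000, 6 of 12 were resolved in EEvSH beside 19.2% of all genes of that level, and at 2000 to 10000 it was 4 of 9 beside 32.8%. At 50 to 500 it was 5 of 38 beside 13.2%. In ERvSH, from the lowest to the highest of these levels, 4 of 38, 2 of 12 and 3 of 9 members were resolved, beside 10.8%, 15.8% and 28.7% of all genes. In ERvEE they were 0 of 38, 4 of 12 and 4 of 9, beside 11.1%, 13.8% and 19.3%. The contrasts share libraries, so a gene that was low in the EE library enters both EEvSH and ERvEE.

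Type I classical cadherins bind their own kind and hold synaptic junctions together. N-cadherin (Cdh2), the main one of excitatory synapses, measured 5562 in SH, 5388 in EE and 5463 in ER. Its EEvSH ratio was 0.969 (0.933 to 1.01), its ERvSH ratio 0.982 (0.946 to 1.02) and its ERvEE ratio 1.01 (0.976 to 1.05), none of them resolved. R-cadherin (Cdh4) measured 975 in SH, 878 in EE and 923 in ER, lowest in EE, with an EEvSH ratio of 0.900 (0.820 to 0.988). M-cadherin (Cdh15), known from muscle and cerebellum, measured 723 in SH, 594 in EE and 694 in ER. Cdh15 was lower in EE than in both other libraries, with 0.822 (0.736 to 0.919) in EEvSH, and ERvEE was 1.17 (1.04 to 1.31). P-cadherin (Cdh3), an epithelial cadherin, had few reads, 45.8 in SH, 30.0 in EE and 38.0 in ER, and an EEvSH interval of 0.397 to 1.06. All 4 genes of the type had their lowest value in EE, and their summed scaled counts gave an EEvSH ratio of 0.943 (0.912 to 0.975).

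Type II classical cadherins are expressed in patchworks of neurons and are known for marking subdivisions of a brain region. Cdh7 had the lowest EEvSH ratio of all members with a mean of at least 50. It measured 405 in SH, 308 in EE and 318 in ER, so SH stood above both other libraries, with 0.760 (0.652 to 0.885) in EEvSH, 0.785 (0.675 to 0.912) in ERvSH and 1.03 (0.878 to 1.21) in ERvEE. Cdh22 had another order, 1828 in SH, 1915 in EE and 1692 in ER, with ER the lowest. Its ratio was 0.883 (0.826 to 0.945) in ERvEE and 0.925 (0.865 to 0.989) in ERvSH.

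Several type II genes had their higher scaled counts after enrichment. Cdh10 measured 1084 in SH, 1193 in EE and 1234 in ER, with SH the lowest and ratios of 1.10 (1.01 to 1.20) in EEvSH and 1.14 (1.05 to 1.24) in ERvSH. Cdh18 measured 842 in SH, 973 in EE and 898 in ER, highest in EE, with an EEvSH ratio of 1.15 (1.05 to 1.27). Cdh6 measured 98.6 in SH, 130.3 in EE and 104 in ER, and its EEvSH ratio of 1.32 (1.01 to 1.74) had an interval that barely cleared 1. Cdh8, a cadherin of corticostriatal and limbic circuits, measured 1829 in SH, 1887 in EE and 1859 in ER. Cdh11, also known from mesenchyme, measured 1435 in SH, 1488 in EE and 1517 in ER. Cdh24 measured 799 in SH, 805 in EE and 801 in ER. These 3 genes had intervals that included 1 in each contrast. Cdh20 measured 335 in SH, 323 in EE and 314 in ER. Cdh12 had values of 152, 147 and 135. Cdh19, known from glial and neural crest cells, had values of 123, 119 and 133. No interval of Cdh12, Cdh19 or Cdh20 excluded 1. Summed over the 11 genes, type II cadherins gave 1.04 (1.01 to 1.07) in EEvSH and 0.970 (0.941 to 0.999) in ERvEE. Both lay on the opposite side of 1 from type I, whose ERvEE ratio of 1.03 (0.999 to 1.07) was not resolved. Of the 11 type II genes, 7 were higher and 4 lower in EEvSH.

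T-cadherin (Cdh13), which has no tail inside the cell and is held by a lipid anchor, carried the largest difference in scaled counts of any member in EEvSH. It measured 5037 in SH, 4150.1 in EE and 4712 in ER, with EE below both other libraries and ER between. Its ratio was 0.824 (0.790 to 0.859) in EEvSH, 0.935 (0.899 to 0.974) in ERvSH and 1.14 (1.09 to 1.18) in ERvEE. Cdh23, which with Pcdh15 forms the tip links of hair cells in the inner ear, measured 317 in SH, 348 in EE and 367 in ER, and its ERvSH interval reached from 0.994 to 1.35. Cdh26 was barely detected, with 2, 6 and 3 reads in SH, EE and ER and an EEvSH interval from 0.557 to 31.6 that resolves nothing.

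**Figure D2:**
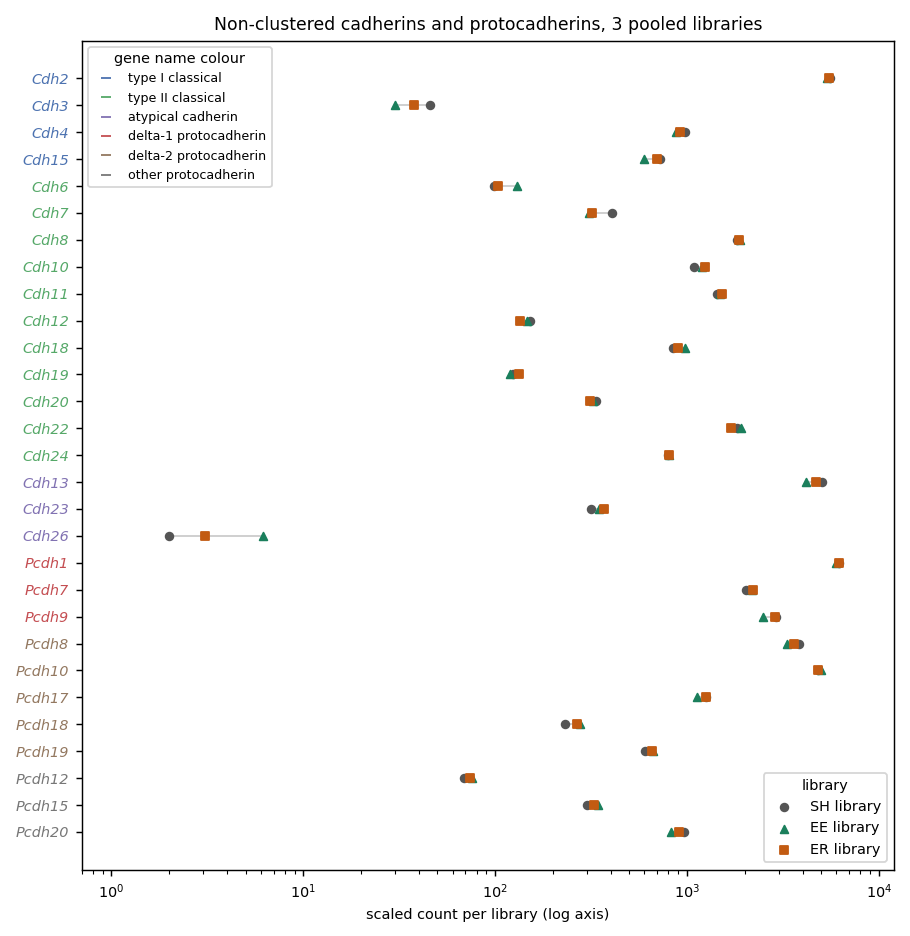
Scaled count (log axis) of the 29 non-clustered members in the SH (circle), EE (triangle) and ER (square) libraries, with gene names coloured by structural group. Each library is 1 pool of 10 rats and has no error bar, and the 3 symbols of a gene nearly coincide except in genes with few reads, as in Cdh26 and Cdh3, and in Cdh7.

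Delta-1 protocadherins have a long outer part and a tail with a phosphatase-binding motif. Pcdh1, studied in humans as an airway adhesion gene, measured 6159 in SH, 5993 in EE and 6192 in ER, and its intervals included 1 in each contrast. Pcdh9 measured 2894 in SH, 2480.3 in EE and 2874 in ER, so EE was the lowest while SH and ER nearly coincided. The Pcdh9 ratio was 0.857 (0.812 to 0.905) in EEvSH, 1.16 (1.10 to 1.22) in ERvEE and 0.993 (0.943 to 1.05) in ERvSH. Pcdh7 had the opposite order in SH and EE, with 2025 in SH, 2189 in EE and 2202 in ER. It was higher in EE and in ER than in SH, at 1.08 (1.02 to 1.15) in EEvSH and 1.09 (1.02 to 1.16) in ERvSH, and ERvEE was 1.01 (0.947 to 1.07).

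Delta-2 protocadherins have a shorter outer part, and several bind the WAVE complex that drives actin branching. Arcadlin (Pcdh8), induced by neuronal activity and, in rat hippocampal neurons, able to draw N-cadherin in from the membrane, measured 3822 in SH, 3322 in EE and 3592 in ER. Its ratio was 0.869 (0.829 to 0.911) in EEvSH, 0.940 (0.898 to 0.984) in ERvSH and 1.08 (1.03 to 1.13) in ERvEE, so that SH was the highest and EE the lowest. Pcdh17, which in mice organises corticostriatal synapses, measured 1263 in SH, 1126 in EE and 1256 in ER. Pcdh17 gave 0.892 (0.822 to 0.968) in EEvSH and 1.12 (1.03 to 1.21) in ERvEE, with SH and ER alike within counting error at 0.994 (0.918 to 1.08).

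Pcdh10, which in mice takes part in activity-driven synapse removal, measured 4841 in SH, 5019.6 in EE and 4801 in ER, with EE the highest. Only its ERvEE interval excluded 1, at 0.956 (0.919 to 0.996). Pcdh19, the gene of an X-linked epilepsy in humans, measured 603 in SH, 664 in EE and 655 in ER, and its EEvSH ratio was 1.10 (0.983 to 1.23). Pcdh18 measured 230.0 in SH, 277 in EE and 268 in ER, lowest in SH, with 1.20 (1.01 to 1.44) in EEvSH and 1.16 (0.971 to 1.40) in ERvSH. Among the other protocadherins, Pcdh20 measured 969 in SH, 829 in EE and 905 in ER and was lower in EE than in SH, at 0.856 (0.778 to 0.941). Its ERvEE interval, 0.990 to 1.20, included 1. Pcdh15 measured 301 in SH, 344 in EE and 329 in ER and Pcdh12, known from endothelium, had values of 68.7, 75.5 and 73.9. Neither was resolved in any contrast.

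**Figure D3:**
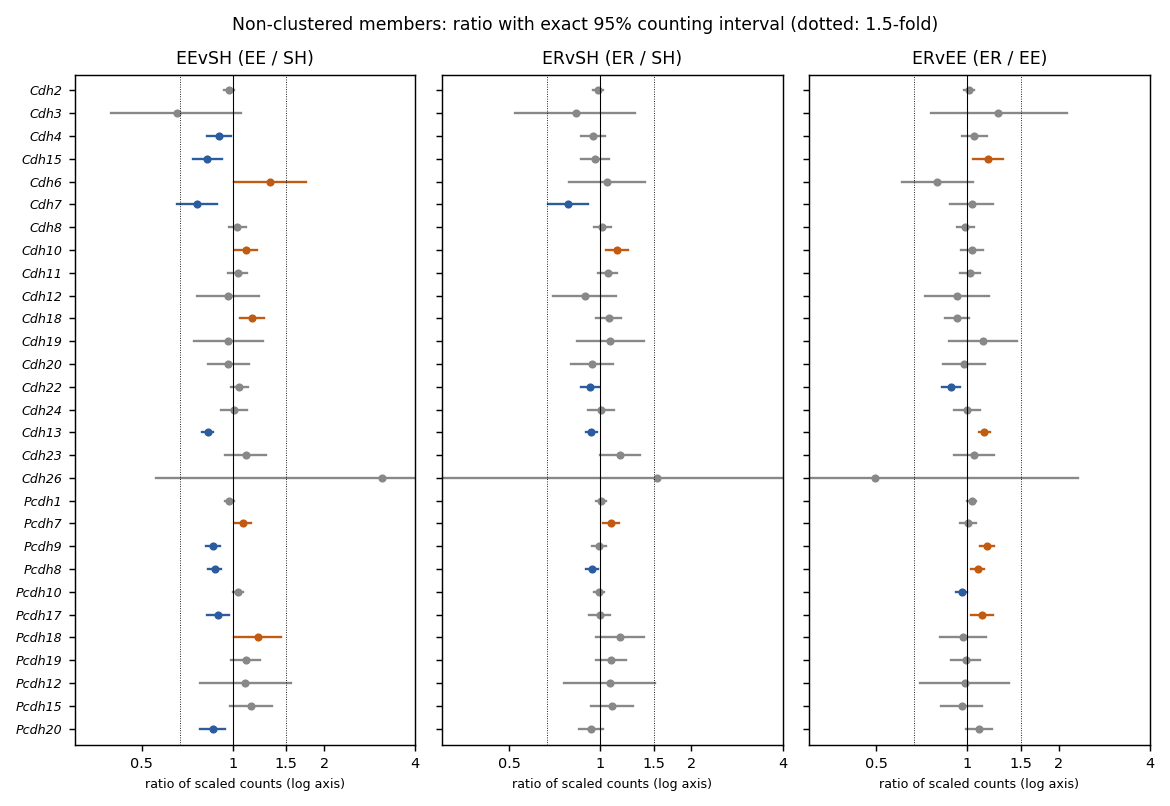
Ratio of scaled counts (log axis) with exact 95% counting intervals for the 29 non-clustered members in EEvSH, ERvSH and ERvEE, in orange where the interval lay above 1, blue where below and grey where it included 1, with intervals cut at the edges of the axis. In EEvSH 8 genes are blue and 5 orange, beside 8.94% and 9.27% of all genes compared, whatever their reads. None of the blue or orange points in EEvSH lies beyond the dotted 1.5-fold lines.

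Marker genes of other cells also differed in the EE library. Of 11 measured markers of striatum and central amygdala 10 were higher in EE than in SH, with summed scaled counts of 13570 in SH, 15656 in EE and 13362 in ER and a median log2 ratio of 0.42 in EEvSH. Among these, Penk, the enkephalin precursor, measured 4972 in SH, 6650.0 in EE and 5046 in ER. In this list the EEvSH interval lay above 1 for 8 markers and below 1 for 1, beside 9.27% and 8.94% of all genes. The lower one was Ppp1r1b, at 0.868 (0.827 to 0.910). Drd1 at 1.01 and Pde10a at 1.03 were not resolved in EEvSH. Inhibitory neuron markers were higher in EE than in SH for 5 of 6, with sums of 24709, 28121 and 25264. Oligodendrocyte markers were higher in EE than in SH for 7 of 7, with sums of 114134, 128164 and 123684, and blood markers for 4 of 4, with sums of 3149, 4441 and 4024. Of all genes compared, 50.7% were higher in EEvSH. The EEvSH interval lay above 1 for 4 inhibitory, 7 oligodendrocyte and 3 blood markers and below 1 for 0 of these lists. Pvalb, at 1.03 (0.937 to 1.12), was not resolved. The 8 projection neuron markers summed to 138999, 138929 and 137399. In EEvSH 6 of these 8 were higher, 4 of them with an interval above 1, and 2 were lower, both with an interval below 1. Slc17a7, the glutamate transporter that defines these cells, measured 57756 in SH, 57766 in EE and 58098 in ER. No measured marker of the striatal, inhibitory, oligodendrocyte, blood or projection neuron list was at 0 in any library. The part of these shifts in the EE differences of Cdh4, Cdh6, Cdh7, Cdh10, Cdh13, Cdh15, Cdh18, Pcdh7, Pcdh8, Pcdh9, Pcdh17, Pcdh18 and Pcdh20 was not tested.

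Beta protocadherins are encoded by single exons, so a read assigned to the right beta gene also reports the promoter it came from. Their promoters are shown for that reason. Of the 15 beta members, 13 (all but Pcdhb11 and Pcdhb22) had a promoter (250 bases before to 50 after the start) in the RefSeq table for GRCr8. The most frequent 10-letter word among the 17 beta promoters of that table was GGTGGCGCTG, which holds CGCT, the core of the element known from clustered protocadherin promoters. Searched on both strands, the word was in 15 of these 17 promoters and in 13 of 13 promoters of the beta members. It was in 0 of 13 of gamma members, in 0 of 23 of non-clustered members, and in 0.221% of all 33469 promoters. CGCT alone was in 13 of 13 promoters of beta members, 10 of 13 of gamma members, 19 of 23 of non-clustered members and 60.9% of all promoters. The word began 46 to 208 bases before the start, with a median of 68. It was chosen from these sequences, and a match is a description. The 30 bases around it are given on the plus strand for the members with the most reads (Pcdhb5, Pcdhb9), the fewest (Pcdhb2, Pcdhb21) and the only resolved ERvSH difference in the cluster (Pcdhb3), with the word in capitals.
Pcdhb2, chr18:29279923-29279952 (+): aagaacgcagGGTGGCGCTGcagcctcaga
Pcdhb3, chr18:29285604-29285633 (+): atgaacgcatGGTGGCGCTGttgactaaga
Pcdhb5, chr18:29302404-29302433 (+): atgaacgcagGGTGGCGCTGcaggctaaga
Pcdhb9, chr18:29379248-29379277 (+): aaagacacagGGTGGCGCTGcaggctaaga
Pcdhb21, chr18:29492149-29492178 (+): atagtcacatGGTGGCGCTGcaggatagga
The bases directly beside the word were not the same in all of these genes.

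As a group the beta genes differed by less than counting error. Their summed scaled counts were 1660.1 in SH, 1699 in EE and 1743 in ER, with ratios of 1.02 (0.955 to 1.10) in EEvSH, 1.05 (0.981 to 1.12) in ERvSH and 1.03 (0.958 to 1.10) in ERvEE. Pcdhb5, with the most reads of the cluster, measured 240.0 in SH, 220.2 in EE and 263 in ER, and its ERvEE interval reached from 0.990 to 1.44. Pcdhb9 measured 202 in SH, 197 in EE and 187 in ER. Pcdhb8 had values of 169, 185 and 183, Pcdhb7 of 182, 149.9 and 176 and Pcdhb19 of 155, 147 and 151. None of these 5 was resolved in any contrast. Pcdhb3, singled out after its values were seen, measured 105 in SH, 131 in EE and 151 in ER, and its ERvSH ratio was 1.44 (1.12 to 1.87).

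Beta exons are close copies of one another, so reads of single genes are uncertain where the counting allowed them to be shared. The thinly covered end of the cluster held the one gene past the size rule. Pcdhb2 had 20, 28 and 13 reads in SH, EE and ER and scaled counts of 19.9, 28.9 and 13.3, so ER was the lowest and EE the highest. Its ERvEE ratio was 0.461 (0.219 to 0.919), and its ERvSH ratio of 0.670 (0.306 to 1.41) was not resolved. The call rests on these few reads, and with a minimum mean of 50 the gene is not counted. Pcdhb21 had 19, 28 and 18 reads in the same order of libraries and no resolved ratio. Pcdhb10, Pcdhb11 and Pcdhb12 lay between 52.8 and 81.0 scaled counts with no resolved ratio.

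Alpha and gamma protocadherin transcripts join a variable first exon to constant exons that the isoforms of a cluster share, and how reads of the shared exons were assigned is not given in the sources used here. RefSeq for GRCr8 lists the alpha cluster as 1 gene with 14 isoform names as synonyms, and 12 of its 15 gamma genes have the same end. In each cluster 1 name took most reads. Pcdha12 held 96.7%, 96.1% and 95.8% of the alpha reads and Pcdhgc3 57.1%, 56.1% and 55.5% of the gamma reads in SH, EE and ER. The values of single alpha and gamma isoforms are therefore uncertain, and the cluster sums are the safer measure.

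The alpha cluster summed to 5419 in SH, 5492 in EE and 5619 in ER, with ratios of 1.01 (0.976 to 1.05) in EEvSH, 1.04 (0.999 to 1.08) in ERvSH and 1.02 (0.985 to 1.06) in ERvEE. Pcdha12 measured 5241 in SH, 5277 in EE and 5383 in ER, and no ratio was resolved. A pair of rows shared the name Pcdha4. The row ENSRNOG00000047174 measured 96.6 in SH, 133 in EE and 144 in ER, with SH the lowest and ratios of 1.38 (1.05 to 1.82) in EEvSH and 1.49 (1.14 to 1.95) in ERvSH. The row ENSRNOG00000050378 measured 81.7 in SH, 81.7 in EE and 92.3 in ER with no resolved ratio. Without Pcdha12 the alpha sum gave an ERvSH ratio of 1.32 (1.08 to 1.62).

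Gamma protocadherins, needed in mice for the survival of interneurons, summed to 9777 in SH, 9665 in EE and 9773 in ER. The ratio was 0.989 (0.961 to 1.02) in EEvSH, 1.000 (0.972 to 1.03) in ERvSH and 1.01 (0.983 to 1.04) in ERvEE, so no contrast was resolved. Pcdhgc3, the C-type isoform, measured 5579.7 in SH, 5423 in EE and 5429 in ER, with an EEvSH ratio of 0.972 (0.936 to 1.01). The A-type isoforms, 11 genes, summed to 3073, 3128 and 3258 and gave 1.06 (1.01 to 1.11) in ERvSH, while the 5 B-type genes gave 0.966 (0.888 to 1.05).

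Pcdhga7 measured 581 in SH, 547 in EE and 625 in ER, highest in ER, with 1.14 (1.01 to 1.29) in ERvEE. Pcdhga2 had values of 483, 521 and 490.3, Pcdhga10 of 394, 385 and 372 and Pcdhga6 of 336, 355 and 363, none resolved. Pcdhga11, singled out after its values were seen, measured 250.0 in SH, 304 in EE and 351 in ER. SH was its lowest library and ER its highest, with 1.22 (1.02 to 1.44) in EEvSH and 1.40 (1.19 to 1.66) in ERvSH. The 5 gamma genes with the fewest reads were Pcdhga1, Pcdhga3, Pcdhga5, Pcdhga9 and Pcdhgb4, between 31.8 and 168 scaled counts, and none was resolved. Pcdhga1, at 46.8 in SH, 48.6 in EE and 31.8 in ER, had the lowest ERvEE ratio of these, 0.654 (0.402 to 1.05).

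**Figure D4:**
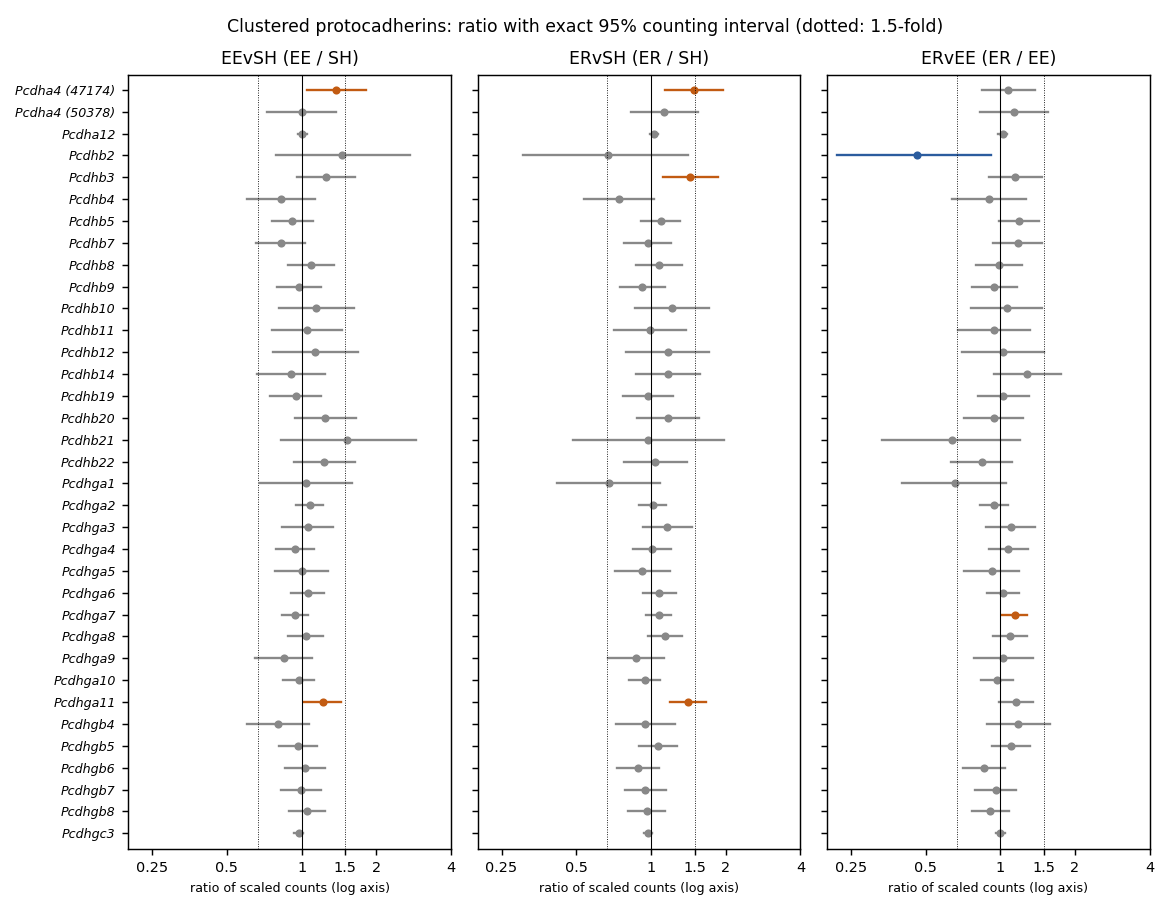
Ratio of scaled counts (log axis) with exact 95% counting intervals for the 35 clustered protocadherins in EEvSH, ERvSH and ERvEE, coloured as orange above 1, blue below 1 and grey where the interval included 1, the pair of Pcdha4 rows being told apart by the last digits of their identifier. In EEvSH 2 genes are resolved as higher and 0 as lower, beside 9.27% and 8.94% of all genes compared. In ERvSH they are 3 and 0, beside 7.59% and 7.89%, and in ERvEE 1 and 1, beside 6.47% and 6.5%. Only Pcdhb2 in ERvEE passed the 1.5-fold size rule.

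Promoter choice in these clusters depends on the insulator protein CTCF and the cohesin ring. Of 9 genes of this machinery 0 passed the size rule in any contrast. Ctcf itself measured 1963 in SH, 1819.7 in EE and 1889.5 in ER, with 0.927 (0.869 to 0.989) in EEvSH, the one resolved EEvSH difference of the list. The cohesin subunits Rad21, Smc1a and Smc3 had no resolved ratio. In ERvSH 2 of the 9 genes were higher with an interval above 1, beside 7.59% of all genes, the cohesin release factor Wapl at 1.10 (1.01 to 1.20) and Smchd1, a silencing factor of the clusters, at 1.09 (1.001 to 1.19).

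Catenins link classical cadherins to actin and, for beta-catenin, also carry Wnt signals to the nucleus. Of 8 measured catenin genes (Ctnna3 was not analysed here) 0 passed the size rule. Beta-catenin (Ctnnb1) measured 7121 in SH, 7689 in EE and 7465 in ER, with 1.08 (1.05 to 1.12) in EEvSH and 1.05 (1.01 to 1.08) in ERvSH. Plakoglobin (Jup), its close relative, measured 1741 in SH, 1943 in EE and 1785 in ER, with EE the highest and an EEvSH ratio of 1.12 (1.05 to 1.19). The neuronal alpha-catenin Ctnna2 measured 1369 in SH, 1494 in EE and 1568 in ER, with SH the lowest and an ERvSH ratio of 1.15 (1.06 to 1.23). Ctnna1 had values of 2199.8, 2128 and 2074, and p120-catenin (Ctnnd1), which keeps cadherins at the membrane, of 3084, 2970.4 and 2987. The p120 relatives had 6976, 7072 and 6943 for Ctnnd2, 1670.0, 1633 and 1641 for Arvcf and 7790.5, 8013 and 7995 for Pkp4. No interval of these 5 genes excluded 1. In EEvSH the interval thus lay above 1 for 3 of 8 catenin genes and below 1 for 0, beside 9.27% and 8.94% of all genes. Their means lay between 500 and 10000, where 19.2% of all genes (500 to 2000) and 32.8% (2000 to 10000) were resolved in either direction.

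Proteases that shed cadherins and their partners inside the cell were 11 genes, of which 0 passed the size rule. In EEvSH the interval excluded 1 for 2 higher and 3 lower, beside 9.27% and 8.94% of all genes, and in ERvEE for 5 higher and 1 lower, beside 6.47% and 6.5%. Of all genes with a mean of 2000 to 10000, a level at or above which most of this list lay, 32.8% were resolved in EEvSH and 19.3% in ERvEE. Cyfip2, Ptk2b, Nckap1 and Wasf1, all higher in ERvEE, had means above 10000, a level for which no share was computed. There even small differences are resolved, as for Cyfip2 at 1.015 (1.002 to 1.027) in ERvEE, so the shares given are no like comparison. Of the kinases, Fyn and Ptk2b were lower in EE than in SH, at 0.928 (0.888 to 0.971) and 0.920 (0.902 to 0.939). Ptk2 lay on the other side, at 1.05 (1.000 to 1.11), its lower bound just above 1. Within the WAVE complex, which binds the tails of delta-2 protocadherins, Wasf1 gave 0.943 (0.921 to 0.965) in EEvSH and Nckap1 1.06 (1.03 to 1.08), on opposite sides of 1. The other listed genes of the complex, Cyfip2 at 1.000 (0.988 to 1.01) and Abi1 at 1.02 (0.971 to 1.06), were not resolved in EEvSH. Taok2, the kinase downstream of arcadlin, measured 5299 in SH, 5205 in EE and 5116 in ER, with no resolved ratio.

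Among 18 measured genes of the wider cadherin superfamily 1 passed the size rule, as lower in EEvSH, beside 0.942% of all genes. Cdhr3, known in humans from ciliated epithelium, had 36, 11 and 21 reads in SH, EE and ER, with EE the lowest and an EEvSH ratio of 0.317 (0.146 to 0.637). Ttr, a defining marker of choroid plexus, another ciliated epithelium, measured 79.7 in SH and 4.14 in EE and was at 0 in ER. Kl, the other measured marker of that list, had 15, 22 and 18 reads, with an EEvSH ratio of 1.52 (0.755 to 3.16). Their part in the Cdhr3 difference was not tested. The giant cadherin Fat3 measured 769 in SH, 927 in EE and 831 in ER and was higher in EE, at 1.21 (1.09 to 1.33), while Fat4 and the planar polarity cadherin Celsr1 were lower, at 0.886 (0.817 to 0.961) and 0.796 (0.653 to 0.969).

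Summed over all 64 members, scaled counts were 61626 in SH, 59857 in EE and 61488 in ER, giving 0.971 (0.960 to 0.982) in EEvSH, 0.998 (0.987 to 1.01) in ERvSH and 1.03 (1.02 to 1.04) in ERvEE. The EE library was the lowest. The difference lay in the non-clustered genes, which gave 0.961 (0.948 to 0.973) in EEvSH, whereas the 35 clustered genes gave 1.000 (0.979 to 1.02). The non-clustered sum was 1767 scaled counts lower in EE than in SH, a net of genes that were lower and genes that were higher. Cdh13 was 887 lower. Pcdh8, from 3822 in SH to 3322 in EE, and Pcdh9, from 2894 to 2480, were also lower, so no single gene is a share of the net. The sums rest on the genes with most reads and say nothing of the typical member, whose median log2 ratio was above 0.

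**Figure D5:**
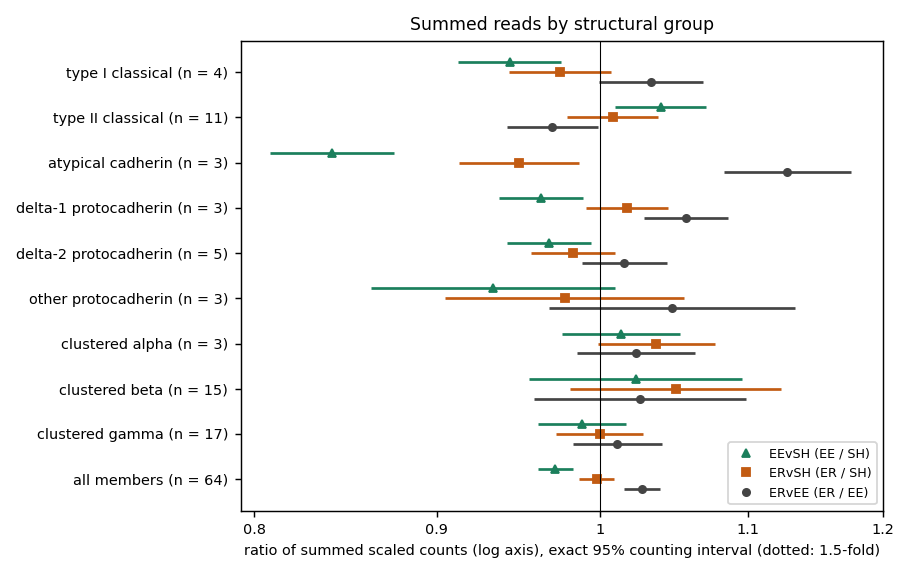
Ratio of summed scaled counts (log axis) with exact 95% counting intervals for each structural group (number of genes in parentheses) and for all 64 members, in EEvSH (triangle), ERvSH (square) and ERvEE (circle). The atypical group, carried by Cdh13, lies farthest below 1 in EEvSH. In that contrast the intervals of type I and type II cadherins lie on opposite sides of 1. The intervals of the 3 clusters include 1 in each contrast.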

How the data were processed

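RNA of BLA micropunches was extracted with a column kit from a homogenate also used for protein, pooled in equal parts per condition, selected for poly(A) and made into libraries that keep the strand. Per the study's methods the authors aligned reads with HISAT2 and normalised with DESeq2. The sources used here do not give their versions, the genome build or the counting setting. The deposited table holds for each gene a normalised signal, the reads over the library's size factor. A single read was worth 0.996 in SH, 1.03 in EE and 1.03 in ER, and 100% came out whole within 0.001 of a read, which gave back the reads. Unlike the study's ranking by fold change, ratios here carry counting intervals. No test between conditions was possible with 1 library per condition, and edgeR (4.0.16) served only for other scaling factors.

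Of 19113 listed genes 16797 were protein-coding, and 16775 had a mean scaled count above 1. Log2 ratios used a pseudocount of 1, which draws genes with few reads toward 0, and printed ratios have none. Intervals cover counting error only. Reads carry no molecular identifiers, so copies of a molecule count as separate reads and the intervals may be too narrow even for that. Sequencing was paired end, and whether both mates of a pair were counted is not given. Resolved ratios with a bound close to 1 are the least secure. Intervals were computed in Python (3.11.15) with scipy (1.17.1). The code was run on reads simulated with counting error alone, which checks the computation and not whether that error model holds for these libraries. The text names every non-clustered member and catenin, clustered members past the size rule, the 5 with the highest and the 5 with the lowest mean in each cluster, C-type isoforms, and listed partners past the size rule. Other named genes are examples chosen after their values were seen. The members, lists and rules were chosen with earlier results of these data known. Promoters were matched by symbol, for 49 of 63 member names.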

Additional observations from a re-analysis of the deposited data

Results flagged for a closer look

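One row outside the comparisons carried signal. Pcdhb6, a beta cluster gene typed as a pseudogene in the deposited table and so left out by the protein-coding rule, had 63 reads in SH, 54 in EE and 67 in ER. These counts lie far above the 3 reads that a count of 0 allows. Its ERvEE ratio was 1.23 with an exact 95% counting interval of 0.847 to 1.80. Beta genes are close copies of one another, and whether reads of a neighbour were assigned to Pcdhb6 was not tested.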

How the results depend on the processing

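Of 81 alternatives 70 left a result as reported by the rules used, and 11 moved one. A reversal could be called only for a cluster sum whose interval excluded 1, and no cluster sum had such an interval. A median counted as unchanged if it moved by less than the typical half-width of a single member's interval. Dropping the filter on level changed no member. Without Pcdhgc3 the gamma sum in EEvSH went from 0.989 to 1.01, which counted as unchanged. Scaling by library totals, edgeR's TMM or the upper quartile changed no count of genes past the size rule, and the same 15, 9 and 9 members had intervals excluding 1 in EEvSH, ERvSH and ERvEE. The members' median log2 ratio stayed between 0.01 and 0.03 under all 21 alternatives. Asking only for 1.5-fold, without the interval, gave 3 members in EEvSH, 1 in ERvSH and 4 in ERvEE. Asking only for the interval gave 15, 9 and 9, against 0, 0 and 1. Both drop a criterion. With a minimum mean of 50, ERvEE had 0 members, because Pcdhb2 was no longer counted. Without Pcdha12 the alpha sum gave ratios of 1.21 in EEvSH, 1.32 in ERvSH and 1.10 in ERvEE. Without Pcdhgc3 the gamma sum gave 1.03 in ERvSH. What remains of the alpha sum is the pair of Pcdha4 rows, at 1.49 and 1.13 in ERvSH. What remains of the gamma sum is the A types, at 1.06 in ERvSH, and the B types, at 0.966. Why these genes differ from Pcdha12 and Pcdhgc3 was not tested.

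Each condition is 1 library, so no library was left out in turn. No paired analysis was possible because the groups share 1 library number and nothing pairs the rats within pools. Depth limits the clustered genes most: the counting interval lay inside 1.5-fold for 21 of 35 of them in EEvSH and for 24 of 29 non-clustered genes.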
